A study of Bos taurus with 9 samples.

Results

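The genes followed here detect foreign RNA or DNA in the cytosol, or relay that signal, and were measured in cultured bovine endometrial cells (BEND) given steroid hormones and interferon tau (IFNT), the interferon by which the ruminant conceptus announces itself to the uterus. They were taken from the expression table by symbol, and 8 of 8 were found among its 17162 genes. In this table cyclic GMP-AMP synthase (MB21D1) is written CGAS, and RIG-I and STING carry the symbols DDX58 and TMEM173. The 9 libraries came from 3 groups of 3. CON cells were untreated. GA cells received 1 nM estradiol (E2) and 100 nM progesterone (P4). GB cells received the same hormones and then 100 ng/mL IFNT for 12 h. The cells of every group were wild-type Holstein cells from slaughterhouse uteri, grown in medium with fetal bovine serum. How many cows gave cells, and whether the 3 replicates of a group were separate isolations, is not given in the sources used here, so p-values measure the spread between these libraries, which may be technical. When CON and GA cells were collected relative to GB cells is not given either, so IFNT and culture time cannot be told apart in the comparisons with GB.

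Cytosolic RNA is read by the RIG-I-like receptors. RIG-I (DDX58) binds short double-stranded RNA with triphosphate ends, MDA5 (IFIH1) binds long double-stranded RNA, and both pass the signal through their caspase recruitment domains to MAVS, an adaptor in the outer mitochondrial membrane. LGP2 (DHX58) is a receptor of the same helicase family without these domains and adjusts the activity of the other two. Cytosolic DNA is read by cGAS, which makes the messenger cGAMP, and cGAMP binds STING (TMEM173) in the endoplasmic reticulum membrane. MAVS and STING both recruit the kinases TBK1 and IKKε (IKBKE), which phosphorylate the interferon regulatory factors IRF3 and IRF7 and so switch on type I interferon genes. Several of the sensors are themselves known as interferon-stimulated genes.

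The labels describe the cells as epithelial, and their markers were checked first. None of the 8 epithelial markers analysed reached a mean of 1 FPKM (fragments scaled for exon length and for the mapped reads of the library), and their summed level was 0.54 to 2.23 FPKM across all libraries. The study identified the culture by positive immunofluorescence of the KRT18 protein, a cytokeratin, whereas KRT18 RNA lay between 0.16 and 0.67 FPKM. All 9 stromal fibroblast markers were above 1 FPKM, and their sum was lower in GB (15233 to 15347 FPKM) than in CON (16786 to 17378) or GA (16978 to 17372). The 9 did not move together. Means of VIM, the most abundant, were 9082, 8759 and 7777 FPKM in CON, GA and GB. Means of COL1A1, COL1A2, COL3A1 and THY1 were also lowest in GB. PDGFRA went the other way, with means of 150, 156 and 196 FPKM. For PDGFRB, DCN and LUM the GB mean lay between those of CON and GA. Among the 5 endothelial markers 1 reached a mean of 1 FPKM, and among the 5 immune markers 2 did (CD14 and CD68). The immune sum was 20.8 to 27.6 FPKM, with overlapping ranges in CON, GA and GB. The endothelial sum was low throughout, but in GB (2.27 to 3.44 FPKM) it lay above GA (1.57 to 1.79) without overlap, while it overlapped with CON (1.68 to 2.45). CDH5 and KDR had higher means in GB (1.94 and 0.423 FPKM) than in GA (1.01 and 0.0367) or CON (1.43 and 0.0567). VWF and TEK had lower means in GB than in either. PECAM1, another marker of the 5, was at 0.26 FPKM or less in every library. The cells are therefore called BEND here, without a cell type. The part of cell makeup in the results below was not tested, and in bulk RNA more cells that express a gene cannot be told apart from more RNA per cell. Libraries correlated at a Pearson's r of 0.989 to 0.991 within groups and of 0.955 to 0.959 between GB and the other groups, on the log2(FPKM + 0.5) scale.

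Without IFNT, TBK1 and MAVS were the most abundant of the 8 genes and IFIH1 the least. FPKM is scaled for length, so levels can be set side by side across genes. In CON the order ran from TBK1 at 13.8 ± 0.535 FPKM (SD, n = 3) and MAVS at 13.8 ± 1.00, whose ranges overlapped, to CGAS at 6.53 ± 1.70, which stood apart from both neighbours. DDX58 followed at 3.82 ± 0.641 FPKM, then IKBKE at 2.82 ± 0.518, TMEM173 at 2.30 ± 0.203 and DHX58 at 2.26 ± 0.201, each overlapping with the next. IFIH1 came last at 0.460 ± 0.108 FPKM and stood apart from DHX58. Ranked by level in CON, IFIH1 was above 26.6% of the genes in the table and TBK1 above 55.7%. The order in GA differed only in that TMEM173 and IKBKE, which overlapped there as well, changed places.

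In GB the order was turned over, and the 3 RIG-I-like receptors were the most abundant of the 8 genes. Their levels were 180.2 ± 6.53 FPKM for DDX58, 172 ± 7.48 for IFIH1 and 163 ± 5.54 for DHX58 (SD, n = 3), and neighbours in this order overlapped. CGAS at 62.4 ± 1.09 FPKM, TBK1 at 20.2 ± 1.63 and MAVS at 15.1 ± 1.15 each stood apart from the next gene. TMEM173 at 3.03 ± 1.10 and IKBKE at 2.96 ± 0.539 overlapped at the bottom. DDX58 was then above 92.5% and IFIH1 above 92.2% of the genes in the table, while MAVS had moved only from 55.7% in CON to 56.7%.

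**Figure D1:**
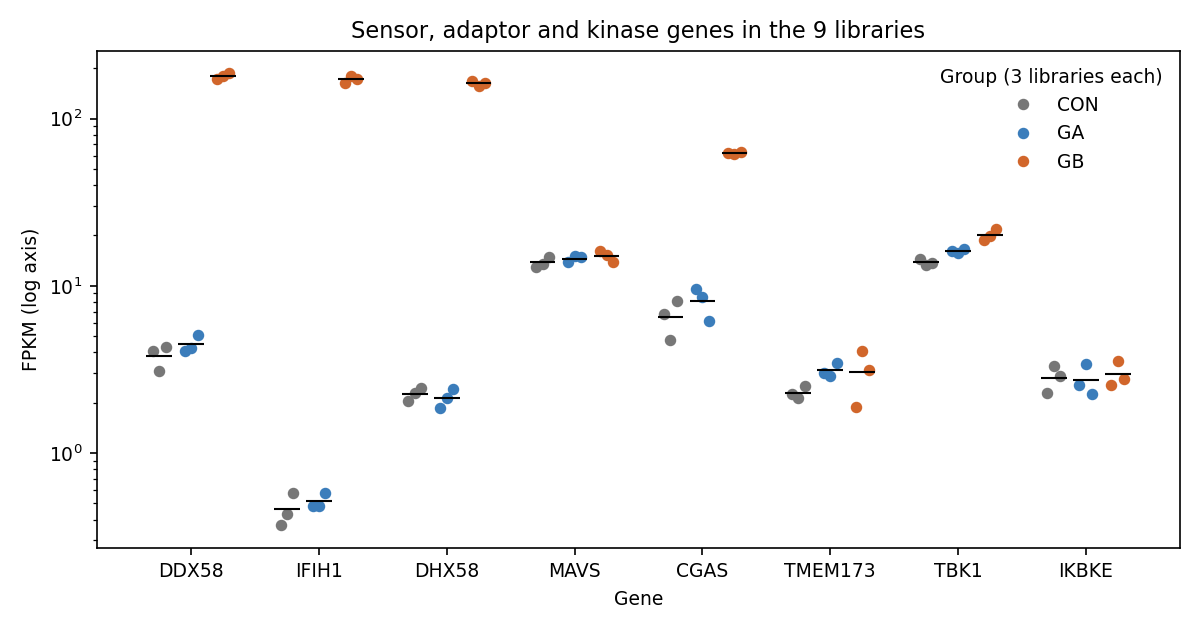
FPKM of the 8 genes (log axis) in each library, with 3 points per group and a bar at the group mean. In GB the 3 receptors sit at 158 to 186 FPKM and CGAS at 61.3 to 63.4, far above CON and GA, while MAVS, TMEM173 and IKBKE overlap between GB and the other groups.

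Differences were tested on log2(FPKM + 0.5) with limma over all 12578 genes with a mean of at least 0.5 FPKM, and a gene was called at |log2FC| above 1 together with an adjusted p (Benjamini-Hochberg) below 0.05, the thresholds of the study. The comparison of GB with GA bears on IFNT in cells that had the hormones. In it 4 of the 8 genes were called higher, against 2.66% of all genes tested, and the other 4 were not called. In GB vs. CON the count was again 4 of 8, against 2.94% of all genes tested. Both comparisons use the same GB libraries. The 8 genes were chosen with earlier results of these data known, so these shares describe them and are no independent support. The genes called were the 3 RNA receptors and CGAS. IFIH1 passed the filter on low values through its GB libraries, since its mean was 0.460 FPKM in CON and 0.513 in GA.

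IFIH1, the receptor for long double-stranded RNA, made the steepest rise of the 8. It was listed at 0.370, 0.430 and 0.580 FPKM in CON, at 0.480, 0.480 and 0.580 in GA and at 163.8, 178.6 and 173 in GB. CON and GA overlapped, and the lowest GB library was 282 times the highest library of either. The log2FC was 7.41 in GB vs. GA (SE 0.10, adjusted p = 1.12e-10, limma) and 7.49 in GB vs. CON. It was the gene of rank 15 by log2FC among all genes tested in GB vs. GA, and of rank 14 in GB vs. CON. Because IFIH1 was near 0.5 FPKM without IFNT, its log2FC depended on the pseudocount more than that of the other members, and the ratio of the mean FPKM of GB to that of GA, 335, is larger than the log2FC implies.

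DHX58, the receptor without a signalling domain, measured 2.05, 2.29 and 2.45 FPKM in CON against 1.86, 2.13 and 2.40 in GA. In GB it was at 168.7, 157.6 and 163.7 FPKM, with every GB library at least 64.3 times the highest CON library. It rose with a log2FC of 5.97 in GB vs. GA (SE 0.092, adjusted p = 1.62e-10, limma) and of 5.89 in GB vs. CON. Its rank by log2FC was 31 in both comparisons.

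DDX58, the receptor for triphosphate RNA, started from the highest level of the 3 and had the smallest log2FC among them. It was at 4.10, 3.09 and 4.28 FPKM in CON, at 4.10, 4.24 and 5.10 in GA and at 173, 180.8 and 186 in GB. The GB libraries lay above all others, and CON and GA overlapped. The log2FC was 5.19 in GB vs. GA (SE 0.12, adjusted p = 1.32e-09, limma) and 5.40 in GB vs. CON. The 95% intervals of the GB vs. GA log2FC were 4.92 to 5.45 for DDX58, 5.76 to 6.17 for DHX58 and 7.17 to 7.65 for IFIH1, and did not overlap.

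Unequal rises from unequal starting levels brought the receptors to like levels. Within a library the most abundant receptor was 7.19 to 11.1 times the least abundant in CON, 8.54 to 8.83 times in GA and 1.06 to 1.15 times in GB. IFIH1 made up 7.00% ± 1.18 (SD, n = 3) of the summed FPKM of the 3 receptors in CON, 7.21% ± 0.225 in GA and 33.3% ± 1.10 in GB. The share of DDX58 was 58.2% ± 4.86 in CON, 62.9% ± 0.905 in GA and 35.0% ± 0.679 in GB. For both genes the shares in GB did not overlap with those in CON or GA (exact permutation test, two-sided, p = 0.1 in each case, the smallest that 3 libraries against 3 allow, and p = 0.133 after Benjamini-Hochberg adjustment over the 8 tests of shares and ratios). The share of DHX58 was 34.8% ± 4.14, 29.9% ± 1.12 and 31.7% ± 1.48 in CON, GA and GB. For this gene GB libraries overlapped with those of CON and of GA (exact permutation p = 0.2 in both comparisons with GB, and 0.2 adjusted). The CON libraries (31.4% to 39.4%) lay above the GA libraries (28.9% to 31.1%), a comparison that was not tested. These shares are ratios within a library and do not depend on how libraries were scaled to each other.

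**Figure D2:**
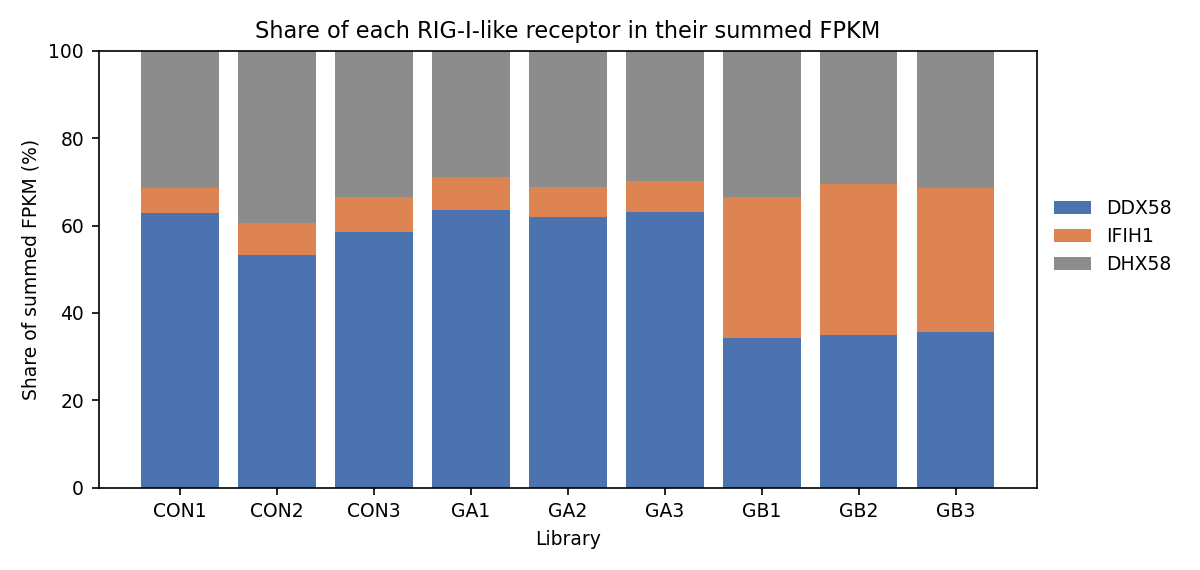
Stacked bars of the share (%) of DDX58, IFIH1 and DHX58 in their summed FPKM, one bar per library. The IFIH1 share is 5.67% to 7.93% in the 6 CON and GA libraries and 32.4% to 34.5% in the 3 GB libraries, while the DDX58 share is 53.2% to 63.7% in the former and 34.3% to 35.6% in the latter.

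MAVS, the adaptor that RIG-I and MDA5 both need, was not called in any comparison. It was at 12.9, 13.6 and 14.9 FPKM in CON, at 13.8, 14.99 and 14.8 in GA and at 16.2, 15.2 and 13.9 in GB. The 3 groups overlapped. Its log2FC in GB vs. GA was 0.049, with a 95% interval of −0.13 to 0.23 (adjusted p = 0.685, limma), and in GB vs. CON it was 0.12, with an interval of −0.055 to 0.30. The receptors together therefore stood in another proportion to the adaptor. Their summed FPKM was 0.475 ± 0.0405 (SD, n = 3) times that of MAVS in CON, 0.490 ± 0.0494 times in GA and 34.3 ± 3.22 times in GB, with the GB libraries above all others (exact permutation p = 0.1 against each group, 0.133 adjusted).

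On the DNA side the sensor and its adaptor also parted. CGAS was at 6.78, 4.71 and 8.09 FPKM in CON, at 9.54, 8.61 and 6.17 in GA and at 62.6, 61.3 and 63.4 in GB. The GB libraries differed little from each other, with a coefficient of variation of 1.74%, and lay far above the rest, while CON and GA overlapped. CGAS rose with a log2FC of 2.89 in GB vs. GA (SE 0.19, 95% interval 2.46 to 3.32, adjusted p = 4.24e-06, limma) and of 3.19 in GB vs. CON (SE 0.19, adjusted p = 1.91e-06). This interval lies below that of each RNA receptor.

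TMEM173, which encodes STING, was at 2.26, 2.12 and 2.52 FPKM in CON, at 3, 2.90 and 3.45 in GA and at 1.89, 4.08 and 3.13 in GB. The GB libraries were the most scattered of any member in any group, with a coefficient of variation of 36.2%, and spanned both other groups. The log2FC was −0.081 in GB vs. GA (95% interval −0.56 to 0.40, adjusted p = 0.811, limma) and 0.29 in GB vs. CON (−0.19 to 0.77, adjusted p = 0.334). The sign in GB vs. GA rested on GB1, without which the log2FC was 0.18. In GB vs. CON the log2FC was 0.54 without GB1, with an adjusted p of 0.0311 (limma) but still no call, and it was 0.076 without GB2 (adjusted p = 0.807, limma). At 2 to 4 FPKM this gene was measured less precisely than the abundant members, and its intervals leave room for changes of up to 0.77 on the log2 scale. In a ratio chosen after the values were seen, CGAS was at 2.22 to 3.21 times the FPKM of TMEM173 in CON, 1.79 to 3.18 times in GA and 15.01 to 33.1 times in GB.

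Neither kinase was called. TBK1 was at 14.4, 13.4 and 13.7 FPKM in CON, at 16.2, 15.8 and 16.5 in GA and at 18.7, 19.8 and 21.9 in GB, so that each group lay above the one before it without overlap. The share of all genes with such steps was not counted. The log2FC of TBK1 was 0.31 in GB vs. GA (SE 0.070, adjusted p = 0.00969, limma) and 0.53 in GB vs. CON (SE 0.070, adjusted p = 0.000456), under the fold threshold in both, and TBK1 was not called. An adjusted p under 0.05 at any fold was reached by 29% of all genes tested in GB vs. GA and by 33.5% in GB vs. CON, and by 5 of the 8 members in each. With the GC content of the library reads as a covariate, the GB vs. CON difference of TBK1 no longer passed (log2FC 0.36, adjusted p = 0.098, limma), while that in GB vs. GA did (0.30, adjusted p = 0.0079).

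IKBKE, the kinase related to TBK1, was at 2.27, 3.30 and 2.88 FPKM in CON, at 2.56, 3.39 and 2.25 in GA and at 2.54, 3.57 and 2.78 in GB. The groups overlapped throughout. Its log2FC was 0.10 in GB vs. GA (95% interval −0.31 to 0.52, adjusted p = 0.711, limma) and 0.063 in GB vs. CON (−0.35 to 0.48, adjusted p = 0.824), and its sign changed when single libraries were left out.

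**Figure D3:**
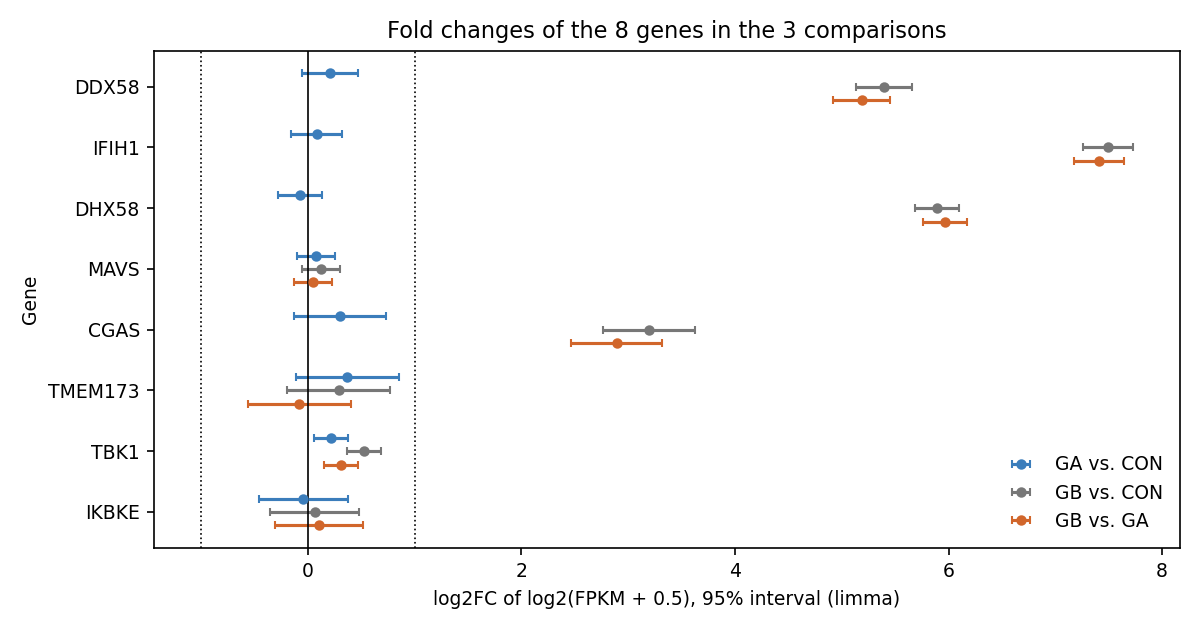
log2FC of the 8 genes with 95% intervals from limma in GA vs. CON, GB vs. CON and GB vs. GA, with dotted lines at −1 and 1. The 3 receptors lie between 5.19 and 7.49 and CGAS between 2.89 and 3.19 in the comparisons with GB, and every interval of GA vs. CON lies between −0.45 and 0.85.

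The hormones alone were examined in GA vs. CON. Limma called 0 of the 8 genes, against 0.0716% of all genes tested, and 1 gene, TBK1, had an unadjusted p under 0.05, which 19.3% of all genes tested had. TBK1 was higher in every GA library than in any CON library, with a log2FC of 0.22 (95% interval 0.061 to 0.38, adjusted p = 0.155, limma). TMEM173 was likewise above all CON libraries in all 3 GA libraries, with a log2FC of 0.37 (−0.11 to 0.85, adjusted p = 0.368). How many of all genes separated GA from CON in this way was not counted. The summed FPKM of every GA library was also above that of every CON library. With the GC content of the library reads as a covariate, the adjusted p was 0.941 for TBK1 and 0.966 for TMEM173 (limma). The remaining members overlapped between GA and CON, at log2FC values from −0.074 for DHX58 to 0.30 for CGAS. The intervals of all 8 lay within −0.45 to 0.85, so that a log2FC of 1 was outside every one of them. The median of all tested genes in this comparison was 0.061.

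Genes of the pathway around the sensors were taken as 4 lists by function. Of the 75 genes tested, 11 were called higher in GB vs. GA, which is 14.7% against 2.66% of all genes tested. The lists were chosen with earlier results of these data known, so this share is a description and no independent support. ZBP1 passed the filter on low values only through its GB libraries. The same number were called higher in GB vs. CON. In GA vs. CON limma called 0 of the 75, and 12 had an unadjusted p under 0.05, against 19.3% of all genes tested. No list was tested as a set.

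Among 17 tested genes that modify the RIG-I-like receptors or MAVS, 3 were called higher in GB vs. GA, with a list median of 0.026 against −0.075 for all genes tested. ZNFX1, a helicase that binds double-stranded RNA and interacts with MAVS, was at 26.4, 28.2 and 29.0 FPKM in GA and at 191.8, 190.9 and 189.7 in GB, and rose with a log2FC of 2.75 (SE 0.053, adjusted p = 5.14e-10, limma). NLRC5, known as the activator of MHC class I genes and as a regulator of RIG-I signalling, rose with a log2FC of 2.01 from a low level of 2.25 ± 0.350 FPKM in GA. TRIM25, the ubiquitin ligase known for modifying RIG-I, was at 46.3, 44.8 and 50.01 FPKM in GA and 141.5, 129.5 and 139.1 in GB, and rose with a log2FC of 1.53. In GB vs. CON the log2FC of these 3 genes was 2.79, 1.97 and 1.49. RNF135 and ZC3HAV1, named after their values were seen, had an adjusted p under 0.05 below the fold threshold in opposite directions. RNF135, the ligase that acts on RIG-I beside TRIM25, had a log2FC of 0.61 in GB vs. GA, and ZC3HAV1, a zinc finger antiviral protein that binds RIG-I in its short form, one of −0.45.

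Of 17 tested genes between MAVS or STING and the interferon genes, 3 were called higher in GB vs. GA, with a list median of 0.090. IRF7, a factor that TBK1 and IKKε phosphorylate, was at 57.8 ± 4.02 FPKM in GA and 350.0 ± 7.76 in GB (log2FC 2.59, SE 0.086, adjusted p = 2.13e-08, limma). IRF3, the other factor, was at 65.7 ± 4.09 and 159 ± 2.25 FPKM (log2FC 1.27, SE 0.054, adjusted p = 1.4e-07). CASP8, a protease that joins the MAVS complex with FADD and RIPK1, was at 9.80, 9.82 and 9.65 FPKM in GA and 51.1, 44.9 and 51.5 in GB, a log2FC of 2.27. In GB vs. CON the values of IRF7, IRF3 and CASP8 were 2.59, 1.34 and 2.53. The TBK1 adaptor AZI2, named after its values were seen, came near the fold threshold with a log2FC of 0.83 in GB vs. GA and 0.99 in GB vs. CON. It was called in GB vs. CON with median-of-ratios factors and without CON1, CON3 or GB2 (log2FC 1.001 to 1.05), and not in the other 16 alternatives. TBKBP1, another adaptor of TBK1 named for the same reason, had a log2FC of −0.47 in GB vs. CON (adjusted p = 0.00547, limma) and of −0.17 in GB vs. GA (adjusted p = 0.238).

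Of 25 tested genes around cGAS and STING, 1 was called higher in GB vs. GA, with a list median of 0.0085. That share of 4% is near the 2.66% of all genes tested, whereas the other lists had 17.6% to 25%. TREX1, the exonuclease that degrades cytosolic DNA, was at 34.7, 34.3 and 30.5 FPKM in GA and at 165.2, 159.7 and 156.9 in GB. All GB libraries were above all others, and the log2FC was 2.26 in GB vs. GA (SE 0.059, adjusted p = 3.79e-09, limma) and 2.15 in GB vs. CON. TRIM56, a ligase linked to cGAS and STING and named after its values were seen, reached 0.84 in GB vs. GA and 0.95 in GB vs. CON. It was called in GB vs. CON only when CON3 was left out (log2FC 1.01).

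Among 16 further tested sensors of cytosolic RNA or DNA, 4 were called higher in GB vs. GA, with a list median of 0.12. ZBP1, which binds nucleic acid in the Z form, was listed at 0.310, 0.300 and 0.180 FPKM in GA against 115.4, 114.8 and 113.6 in GB. Its log2FC was 7.24 (SE 0.22, adjusted p = 1.19e-08, limma), and like IFIH1 it passed the filter through GB. IFI16, a nuclear and cytosolic DNA sensor, was at 14.6, 13.1 and 15.4 FPKM in GA and at 254.8, 264.0 and 267.0 in GB, a log2FC of 4.15. EIF2AK2, the RNA-dependent kinase PKR, rose from 26.4 ± 0.398 to 215 ± 5.68 FPKM (log2FC 3.002). ADAR, which edits double-stranded RNA and keeps the cell's own RNA from MDA5, rose from 35.1 ± 1.18 to 155 ± 2.73 FPKM (log2FC 2.13). In GB vs. CON the log2FC of ZBP1, IFI16, EIF2AK2 and ADAR was 7.33, 4.45, 3.19 and 2.18. The other 12, which include the DNA repair proteins and RNA polymerase III subunits, were not called in either comparison. Below the fold threshold, XRCC6 and PRKDC, named after their values were seen, differed in opposite directions. Their log2FC in GB vs. GA was 0.50 (adjusted p = 0.000224, limma) and −0.41 (adjusted p = 0.00302).

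**Figure D4:**
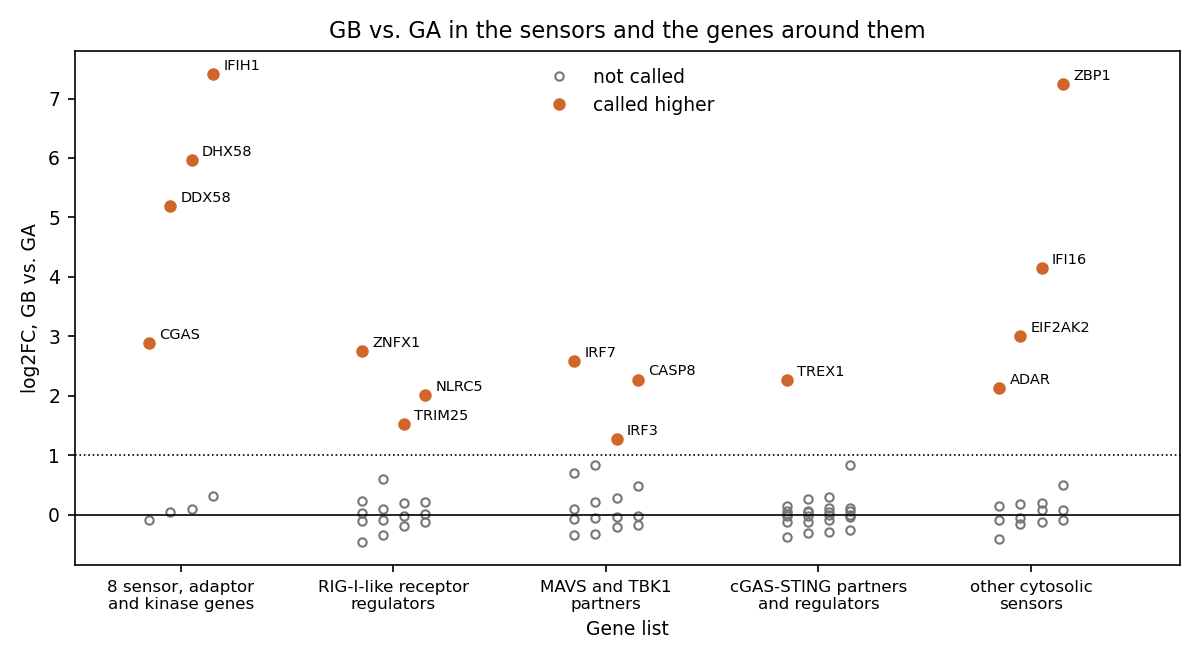
log2FC of GB vs. GA for the 8 genes and for the genes of the 4 lists around them, with filled points for genes called higher, open points for genes not called and a dotted line at 1. The called points run from 1.27 (IRF3) to 7.41 (IFIH1), and the open ones lie between −0.45 and 0.84.

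Of 9 type I and III interferon genes looked for, 1 was analysed. IFNK was listed at 0 in 8 of the 9 libraries and at 0.5 FPKM in GA3. The other 8 were not analysed here.

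Many genes shared the course of the 4 called members over the 9 libraries, as libraries of GB stood apart in all of them. By Pearson's r of log2(FPKM + 0.5), a description dominated by the step between GB and the other groups, the genes most like DDX58 were USP18, EIF2AK2 and XRN2 (0.99951, 0.99943 and 0.99941). Those most like IFIH1 were TRIM21, LOC509283 and MX2 (0.99977, 0.99975 and 0.99972). For DHX58 they were LOC509283, CNP and IFITM1 (0.99974, 0.99971 and 0.9997). CGAS had looser matches in LOC618737, NMI and GRIPAP1 (0.99538, 0.9948 and 0.99451), beside its coefficients of variation of 26.1% in CON and 21.5% in GA. These genes differed in size of change, from a GB vs. GA log2FC of 0.49 for GRIPAP1 to 10.29 for MX2.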

How the data were processed

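RNA-seq libraries were made by the authors from poly-A RNA with a directional kit and sequenced as paired reads. Per the submitters' processing notes and the methods, reads were trimmed with fastp 0.21.0, rRNA reads were removed with Bowtie2, the rest were aligned with HISAT2 2.2.1 to ARS-UCD1.2, and genes were counted with RSEM 1.3.3. The sources used here name neither the annotation release nor whether strand was used in counting. The authors deposited FPKM for each gene in each library, to 2 decimals. The table holds no read counts, so the DESeq2 test of the study could not be repeated. Reads behind a value are unknown, and low values are less precise. Steps between low values of 64 genes gave rough relative depths of 0.899 to 1.08. All value columns could be assigned to a sample by name.

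Tests ran on log2(FPKM + 0.5), with no scaling added. Genes averaging under 0.5 FPKM were left out (17162 in the table, 12578 tested). A mean per group was fitted over the 9 libraries with limma 3.58.1 in R 4.3.3, with a variance trend. Levels, shares and exact permutation tests were computed in Python 3.11.15 with scipy 1.17.1. The pseudocount shrinks the log2FC of weakly expressed genes. The procedure was tested on simulated data. Alternatives were pseudocounts of 1 and 0.1, no filter or a filter at 1 FPKM, 3 other scalings, no variance trend, a fit of only 2 groups, a block for the replicate number, the GC content of the library reads (from the supplement of the study) as a covariate, and each library left out in turn. Outlying libraries were not looked for, as groups had 3 libraries.

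The members and lists were chosen with earlier results of these data known. Named are the 8 members, IRF3 and IRF7, the called genes of each list (up to 6) and the 3 genes most alike each called member. Also named are some cell type markers and a few genes that the text says were named after their values were seen. Gene sequences were not used here. DDX60, CASP10, AIM2 and NLRP1 of the lists and EPCAM, PTPRC, CD3E and MS4A1 of the markers were not analysed here, and TRAF5, SLC46A2 and NLRP3 were below the filter.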

Additional observations from a re-analysis of the deposited data

How the results depend on the processing

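The calls of DDX58, IFIH1, DHX58 and CGAS in both comparisons with GB held under every alternative run, with log2FC ranges in GB vs. GA of 5.05 to 5.30, 6.83 to 8.13, 5.72 to 6.20 and 2.72 to 3.01, and no other member was called under any. TBK1 kept an adjusted p under 0.05 in GB vs. GA in all 20 alternatives (0.0027 to 0.0378, limma) and in 19 of 20 in GB vs. CON. The sign of members that were not called was less stable. With library GC content as a covariate the GA vs. CON log2FC was −0.27 for DDX58, −0.066 for IFIH1, −0.0069 for CGAS, −0.10 for TMEM173 and 0.27 for IKBKE, and the GB vs. CON log2FC of TMEM173 was −0.21. The cause was not tested. GC content was higher in CON than in GA and GB, so it and the group cannot be fully told apart there. With single libraries left out, the log2FC ranged from −0.15 to 0.0017 for DHX58 and from −0.18 to 0.069 for IKBKE in GA vs. CON. In GB vs. CON it ranged from −0.061 to 0.17 for IKBKE and from 0.076 to 0.54 for TMEM173. In GB vs. GA it ranged from −0.0011 to 0.11 for MAVS, −0.29 to 0.18 for TMEM173 and −0.019 to 0.24 for IKBKE. The list around cGAS and STING had 1 or 2 genes called in GB vs. CON. Counts of the other lists and of the members stayed within 1.5 times. Same-numbered libraries did not deviate together (r −0.031 to 0.077 over 9 pairs). This gave no sign that the numbers pair them, but it cannot exclude a shared day or batch that leaves no such trace. With the replicate number as a block 4 members were called in GB vs. GA, as without it, and no call of a member changed. Over all genes the number called was 9 in GA vs. CON and 0 to 13 under the alternatives. IFIH1 had no GA vs. CON value in a fit of those 2 groups alone, being below the filter there.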
